A study of Mus musculus with 6 samples.

Results

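The genes described are those for the proteins of the cytosolic ribosome, measured in whole guts of mouse embryos at E10.5. They were chosen by name from the lines that the authors had tested: the symbols Rpl or Rps with a number and at most 1 closing letter a, x, y or l, and Rpsa, Rplp0, Rplp1 and Rplp2. S6 kinases and pseudogenes were left out. The rule found 76 of 13430 tested genes, 45 of the large and 31 of the small subunit. It also matched 3 lines that the authors did not test, for Rpl3l, Rpl10l and Rpl39l. The compared groups were 3 Ret null gut samples, in which both copies of Ret, a receptor of enteric neural crest cells, carry a null allele, and 3 wildtype samples, all with the strain label C57BL/6J and described as male. It is not stated what the allele removes, how many embryos a sample pooled or whether samples came from separate litters, so the authors' p-values may rest partly on technical spread. The deposited table holds 1 FPKM value per genotype (fragments scaled to transcript length and library size) and none per sample, so no spread between samples can be given and depth is unknown. Levels below are the authors' values. Errors after ± are standard errors of the log2 fold change, obtained by dividing it by the test statistic, and fold changes are Ret null over wildtype. Rose and fell are used only of genes for which the authors' deposited table gives q under 0.05.

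The ribosome is built from a small subunit, which reads the messenger, and a large subunit, which joins amino acids. Each subunit holds ribosomal RNA and 1 copy of nearly every protein, so the proteins are needed in matched amounts. Their genes are among the most strongly expressed genes of growing tissue. Their vertebrate messages begin with a run of pyrimidines, the 5′ terminal oligopyrimidine tract, through which mTOR signalling and Larp1 set their translation. In humans, loss of 1 copy of some of these genes causes Diamond-Blackfan anaemia, and mouse mutants in several have pigment or skeletal phenotypes.

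Ret checks the labels: it stood at 0.0354 FPKM in Ret null gut, against 8.80 FPKM in wildtype gut. Levels of tissue markers also differed between the genotypes, and whether this came from the dissection or from the genotype was not tested. All 9 listed markers of gut epithelium and mesenchyme were higher in Ret null gut, with summed levels of 627 FPKM in Ret null gut and 233 FPKM in wildtype gut. All 8 hepatic markers were higher (339 FPKM in Ret null gut, 31.4 FPKM in wildtype gut), and 7 of 8 crest, neuronal and glial markers fell (40.7 and 89.3 FPKM). All 7 tested muscle and somite markers fell (7.28 and 103 FPKM). Xist, expressed from the inactive X of female cells, stood at 31.8 FPKM in Ret null gut and 0.136 FPKM in wildtype gut, while 4 of 4 Y-linked genes fell. These 4 were still present in Ret null gut. Eif2s3y had 18.1 FPKM there and 29.7 FPKM in wildtype gut, and Ddx3y had 10.6 and 18.3 FPKM. Kdm5d had 7.25 and 13.7 FPKM, and Uty 3.25 and 6.47 FPKM, in the same order. The Xist value in Ret null gut goes against the description of all samples as male, so the genotypes may also differ in their shares of each sex. The part of these differences in the ribosomal protein values was not tested.

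Ribosomal protein genes were at nearly the same level in both genotypes. Of 76 members, 1 rose (Rplp2) and 0 fell in the authors' Cuffdiff test, which is 1.32%, while 14.6% of all tested genes and 7.11% of the 577 other tested genes over 100 FPKM were called. By direction, 5.69% of all tested genes were called higher and 8.88% lower, and of the other abundant genes 4.51% and 2.6%. At an unadjusted p under 0.05 the count was again 1 higher and 0 lower, beside 23.4% of all tested genes. When the test statistic was instead referred to a normal distribution, 0 members and 4.5% of all tested genes were called. The median log2 fold change of the members was 0.07, a change of 5.01%, and the middle of the list ran from 0.04 to 0.11 (quartiles). The spread of the members was small beside the error of each: their log2 fold changes had an SD of 0.0658 over genes, while the median implied standard error of a member was 0.178. For 68 of 76 members the change was less than its own implied standard error, and the smallest q among the others besides Rplp2 was 0.265. In bulk tissue, a different share of cells of a type and a different amount of RNA per cell cannot be told apart.

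The small upward shift was shared with other abundant genes. The value was higher in Ret null gut for 72 of 76 members, for 75.7% of the other tested genes over 100 FPKM and for 52% of all tested genes. The median log2 fold change was 0.07 for the members, 0.07 for those other abundant genes and 0.01 for all tested genes. Measured from the median of tested genes over 100 FPKM, 38 members lay above it and 38 at or below it. Summed FPKM over all lines was itself 0.05 higher on the log2 scale in Ret null gut, and 47 of 76 members lay above that shift. Ribosomal protein genes made up 22.9% of summed FPKM in Ret null gut and 22.3% in wildtype gut.

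**Figure D1:**
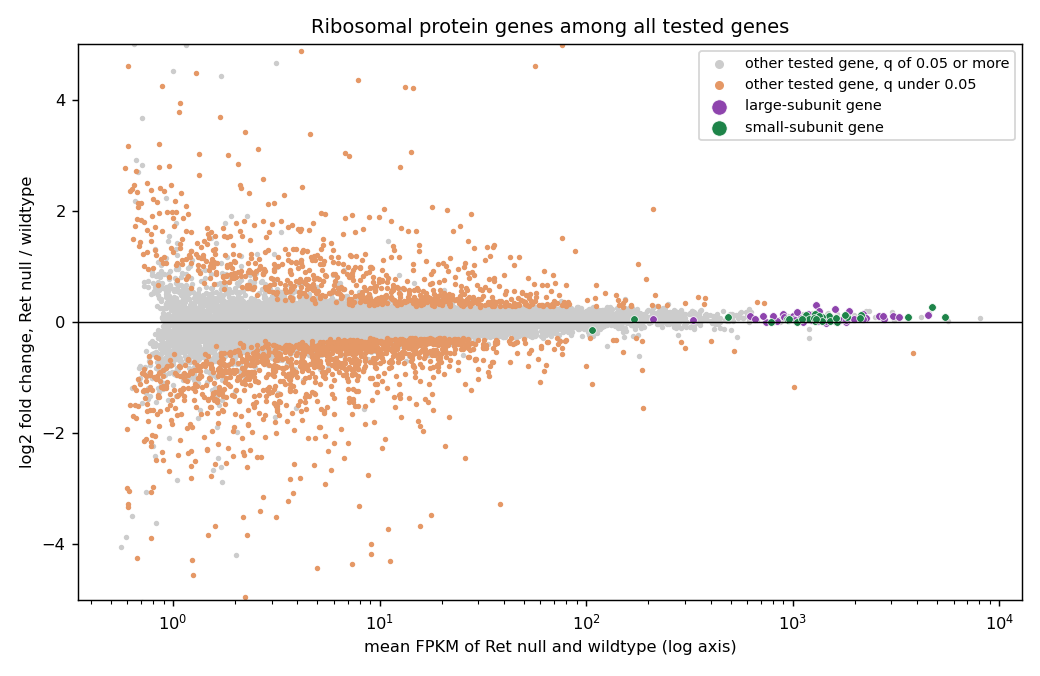
Log2 fold change (Ret null over wildtype) against the mean FPKM of the 2 genotypes (log axis) for every tested gene above 0 in both, with large-subunit genes in purple and small-subunit genes in green; 18 genes beyond a log2 change of 5 are not drawn. The ribosomal protein genes sit at the right, in a narrow band whose median is 0.07.

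Levels spanned a wide range, and their order was kept. In Ret null gut they ran from 102 to 5627 FPKM and in wildtype gut from 112 to 5266 FPKM, with medians of 1365 FPKM in Ret null gut and 1274 FPKM in wildtype gut. Over the 76 genes the rank correlation of the 2 genotypes was 0.993, a description across genes that share libraries. Of the 100 tested genes with the highest mean level, 65 were members, and 55 members exceeded 1000 FPKM in both genotypes. Rps12, a protein of the small subunit's beak, was the highest, at 5627 FPKM in Ret null gut and 5266 FPKM in wildtype gut. Rps2, which lies at the messenger's entry channel, followed with 5133 FPKM in Ret null gut and 4273 FPKM in wildtype gut. Rpl23a, at the exit of the nascent chain's tunnel, had 4693 FPKM in Ret null gut and 4295 FPKM in wildtype gut. Rpl10, which joins the large subunit late in its assembly, had 3365 FPKM in Ret null gut and 3157 FPKM in wildtype gut.

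Only 5 of 76 members stayed under 500 FPKM in both genotypes. Rps15a was lowest, at 102 FPKM in Ret null gut and 112 FPKM in wildtype gut, and had the most negative log2 fold change of the list (-0.14 ± 0.18), without passing (q = 0.518 in the authors' deposited table). Rps27l had 173 FPKM in Ret null gut and 167 FPKM in wildtype gut, and Rpl22 had 214 and 206 FPKM in the same order. Rpl37 stood at 335 FPKM in Ret null gut and 325 FPKM in wildtype gut. Rps3, a protein of the messenger entry channel, stood at 497 FPKM in Ret null gut and 469 FPKM in wildtype gut. FPKM is scaled to length, so these levels can be set beside each other, but they depend on which transcripts the authors' annotation gave each gene and on how reads shared with pseudogene copies were placed.

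**Figure D2:**
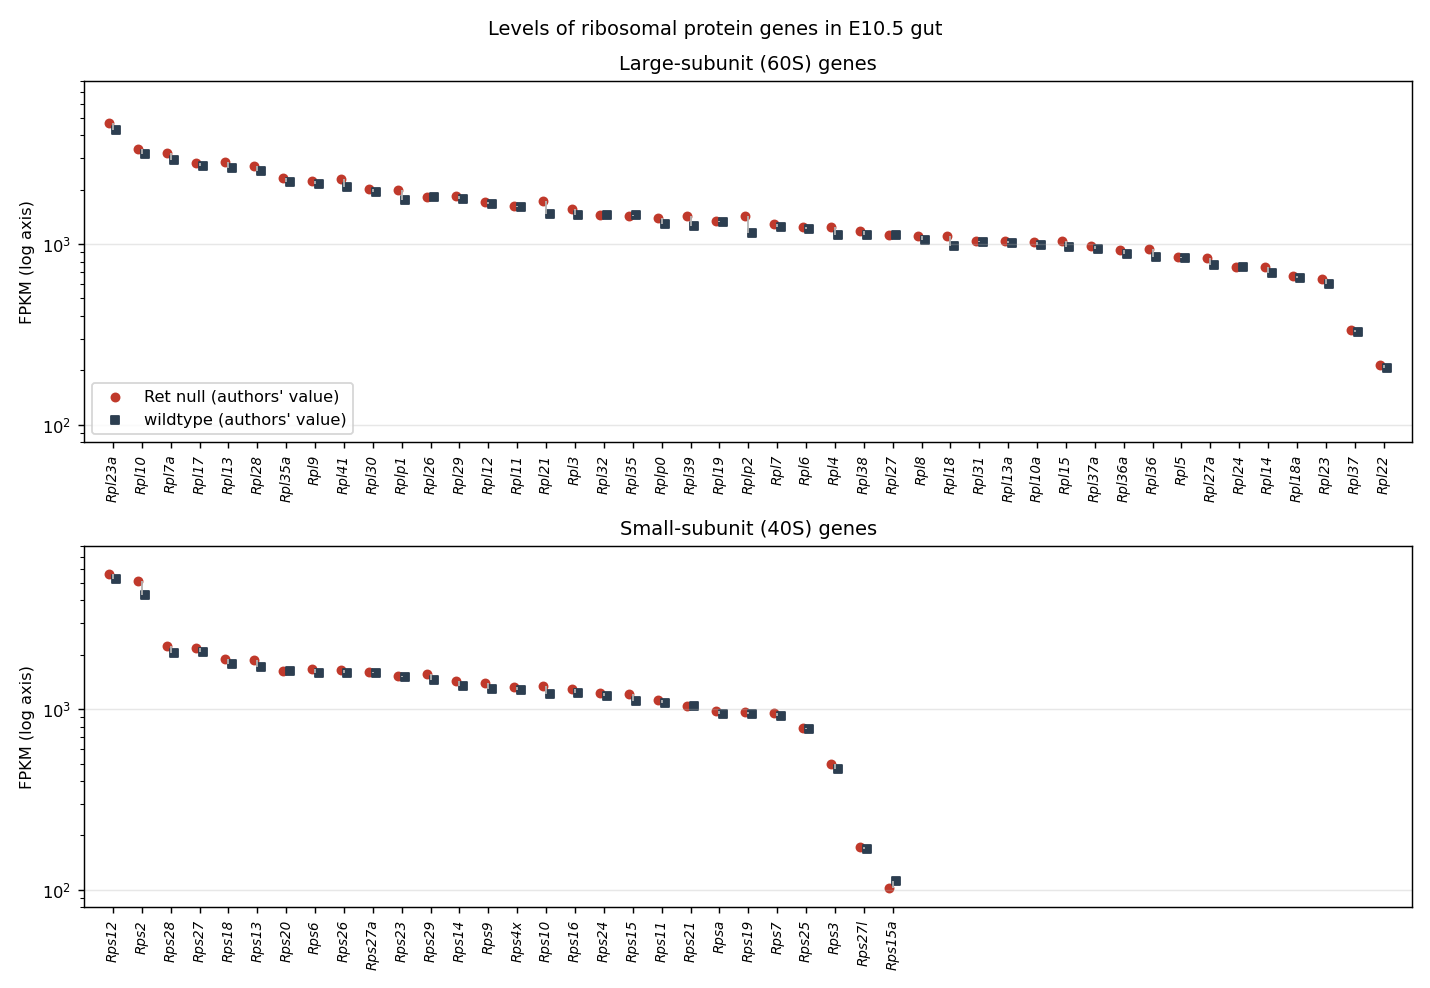
FPKM (log axis) of 73 of the 76 ribosomal protein genes in Ret null gut (red circles) and wildtype gut (dark squares), ordered by mean level within the large and the small subunit; each point is the authors' 1 value per genotype. The paired points nearly coincide from Rps12 at 5627 and 5266 FPKM down to Rps15a at 102 and 112 FPKM.

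Close copies are a limit on these values. A search of each coding sequence against 13607 annotated pseudogene transcripts found a median of 9 pseudogenes per member at 90% identity or more over 80% of its length. Members with 10 or more copies (35 genes) had a median level of 1519 FPKM over the 2 genotypes, and the 41 with fewer had 1260.1 FPKM. The rank correlation of level with copies was 0.389 over 76 genes, and that of log2 fold change with copies was -0.00796. The median log2 fold change was 0.06 with 10 or more copies and 0.07 with fewer. Rpl21 had 76 such copies, Rpl7a 74, Rpl29 58, Rpl17 50 and Rps2 47, while Rplp2, Rpl8 and Rps3 had 0.

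Start sequences are printed, for the run of C and T that many of these messages carry, for the stalk genes, for Rps6 (the S6 kinase substrate) and for the members with the highest and lowest levels that RefSeq's promoter table (GRCm38.p6) held, each as 30 bases with the longest run of C and T between 25 bases before and 50 after an annotated start in capitals.
Rplp0 (chr5:115559467-115559496, plus strand): ggaccgcctggTTCTCCTataaaaggcaca
Rplp2 (chr7:141447636-141447665, plus strand): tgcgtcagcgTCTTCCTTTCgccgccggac
Rps6 (chr4:86857349-86857378, minus strand): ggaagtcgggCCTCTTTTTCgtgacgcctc
Rps12 (chr10:23787181-23787210, minus strand): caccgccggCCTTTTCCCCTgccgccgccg
Rps2 (chr17:24720083-24720112, plus strand): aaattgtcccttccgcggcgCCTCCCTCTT
Rpl10 (chrX:74270836-74270865, plus strand): cgtgagcaggcgtgggagcgTCTCTTTTCC
Rps15a (chr7:118116143-118116172, minus strand): gcccggcccaCTCTCTTTCTgccatcttcc
Rps27l (chr9:66946054-66946083, plus strand): cccgcctccaCTCCTCTCCactcctccccg
Rpl22 (chr4:152324414-152324443, plus strand): atatcagcgctgCTTCTggaatgttccagc
Rpl37 (chr15:5116632-5116661, plus strand): gcgggggtgCTTTCTCTTCCggtctctttg
Rps3 (chr7:99483673-99483702, minus strand): gcggcgtcattgCTCCCgccctatatacct
The runs of Rps2 and Rpl10 reach the end of the searched window and may be longer. Annotated starts can lie away from the start that is used, so a run need not begin at the first base. The runs of Rps15a, Rps27l and Rpl22 begin at -15, -22 and -10 relative to the annotated start and end before it. By that annotation they lie outside the message. The runs of Rps2 and Rpl10 begin 40 bases after the annotated start. Where a gene had several annotated starts, the start with the longest run was taken. The printed Rpl22 stretch lies upstream of the measured Rpl22 line, which begins at 152325878.

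Of 56 members found in that table, 45 (80.4%) had a run of 8 or more letters, against 29.5% of tested genes and 30.4% of all 27025 genes in it. The median longest run was 10 letters in the members and 6 in tested genes. The letters CTTTCC, searched on both strands of the same window, were found in 18 of the 56 members (32.1%), 17 of them on the gene's own strand, and in 7.52% of tested genes and 7.97% of all genes. The run did not sort the fold changes: the median log2 fold change was 0.07 for the 45 members with a run of 8 or more and 0.07 for the 11 with a shorter one. Runs of 10 or 11 letters were printed both for members with high levels (Rps12, Rps2, Rpl10) and for members with low levels (Rps15a, Rpl37). The other low-level members printed had shorter runs, of 9 letters in Rps27l and 5 in Rpl22 and Rps3. At the annotated start itself, 19 of the 56 members (33.9%) had a C, against 18.1% of tested genes, and 16 (28.6%) had 5 or more C or T letters from the first base on, against 5.21% of tested genes. The median count of CpG in the 300 bases was 21.5 in the members and 22 in tested genes.

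The stalk held the 1 call. This is the arm of the large subunit on which Rplp0 anchors pairs of Rplp1 and Rplp2 and which recruits the elongation factors. Rplp2 was at 1435 FPKM in Ret null gut and 1159 FPKM in wildtype gut, or 0.31 ± 0.15 higher on the log2 scale, the largest of the 76. The authors' deposited table gives it q = 0.0281. Its line covers chromosome 7 from 141447650 to 141451342 (mm10) and touches no other coding gene of GENCODE M21. Rplp1 was at 2006 FPKM in Ret null gut and 1745 FPKM in wildtype gut, a log2 fold change of 0.20 ± 0.12, and Rplp0 at 1403 FPKM in Ret null gut and 1292 FPKM in wildtype gut, one of 0.12 ± 0.22. Neither passed (q = 0.267 and 0.726 in the authors' deposited table). The 3 stalk genes had values above the median of genes over 100 FPKM. The Rplp2 call was lost at q under 0.01, and its change was under 1.5-fold. With a normal distribution of the Cuffdiff statistic, Benjamini-Hochberg adjustment gave Rplp2 a q of 0.434. Without the 3 stalk genes the median of the remaining 73 members was 0.06.

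Other large-subunit genes did not pass. Rpl5 and Rpl11 bind the 5S ribosomal RNA and, when free of the ribosome, inhibit Mdm2. Rpl5 stood at 843 FPKM in Ret null gut and 832 FPKM in wildtype gut, and Rpl11 at 1632 FPKM in Ret null gut and 1613 FPKM in wildtype gut. Both had a log2 fold change of 0.02. The Rpl5 line is 86550 bases long, against 8504 for the gene, and touches 1 other coding gene. Outside the stalk, the largest changes among large-subunit genes, both short of the threshold, were those of Rpl21 (1725 FPKM in Ret null gut, 1472 FPKM in wildtype gut, log2 fold change 0.23 ± 0.26) and Rpl39, a small protein lining the exit tunnel (1429 FPKM in Ret null gut, 1252 FPKM in wildtype gut, 0.19 ± 0.18). Rpl24 (log2 fold change -0.00 ± 0.14) and Rpl35 (-0.01 ± 0.19) were the only large-subunit genes below 0. Rpl24, whose mouse mutant is Belly spot and tail, had 743 FPKM in Ret null gut and 744 FPKM in wildtype gut. Rpl38, which in the mouse is needed for translation of a set of Hox messages, had a log2 fold change of 0.08 ± 0.09 at 1187 FPKM in Ret null gut and 1126 FPKM in wildtype gut. Its line is 413361 bases long and touches 2 other coding genes.

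Small-subunit genes showed the same narrow band. Of 31 members 0 rose and 0 fell, beside 14.6% of all tested genes and 7.11% of the other tested genes over 100 FPKM. There were 0 at an unadjusted p under 0.05 and 0 with the normal p, and 29 had the higher value in Ret null gut. Rps2 had the largest change (0.26 ± 0.31), and its error spans 0. Rps6, whose phosphorylation by S6 kinase reports mTOR activity, had 1666 FPKM in Ret null gut and 1578 FPKM in wildtype gut (0.08 ± 0.23). Rpsa, also known as a laminin receptor, had 981 FPKM in Ret null gut and 941 FPKM in wildtype gut (0.06 ± 0.25). Rps15a, Rps21 and Rps20 had the lowest log2 fold changes, of -0.14, -0.00 and 0.00. Rps15 had the widest error, 0.12 ± 1.03, and its line is 672333 bases long and holds 45 other coding genes.

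Large and small subunits moved alike in these values. The median log2 fold change was 0.08 for the 45 large-subunit genes and 0.07 for the 31 small-subunit genes, a difference of 0.0067, and without the stalk genes the large subunit's median was 0.06. Large-subunit genes made up 13.2% of summed FPKM in Ret null gut and 12.9% in wildtype gut, and small-subunit genes 9.67% and 9.41%. Genes of 1 library set are not replicates, so no test of the difference between subunits was made.

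**Figure D3:**
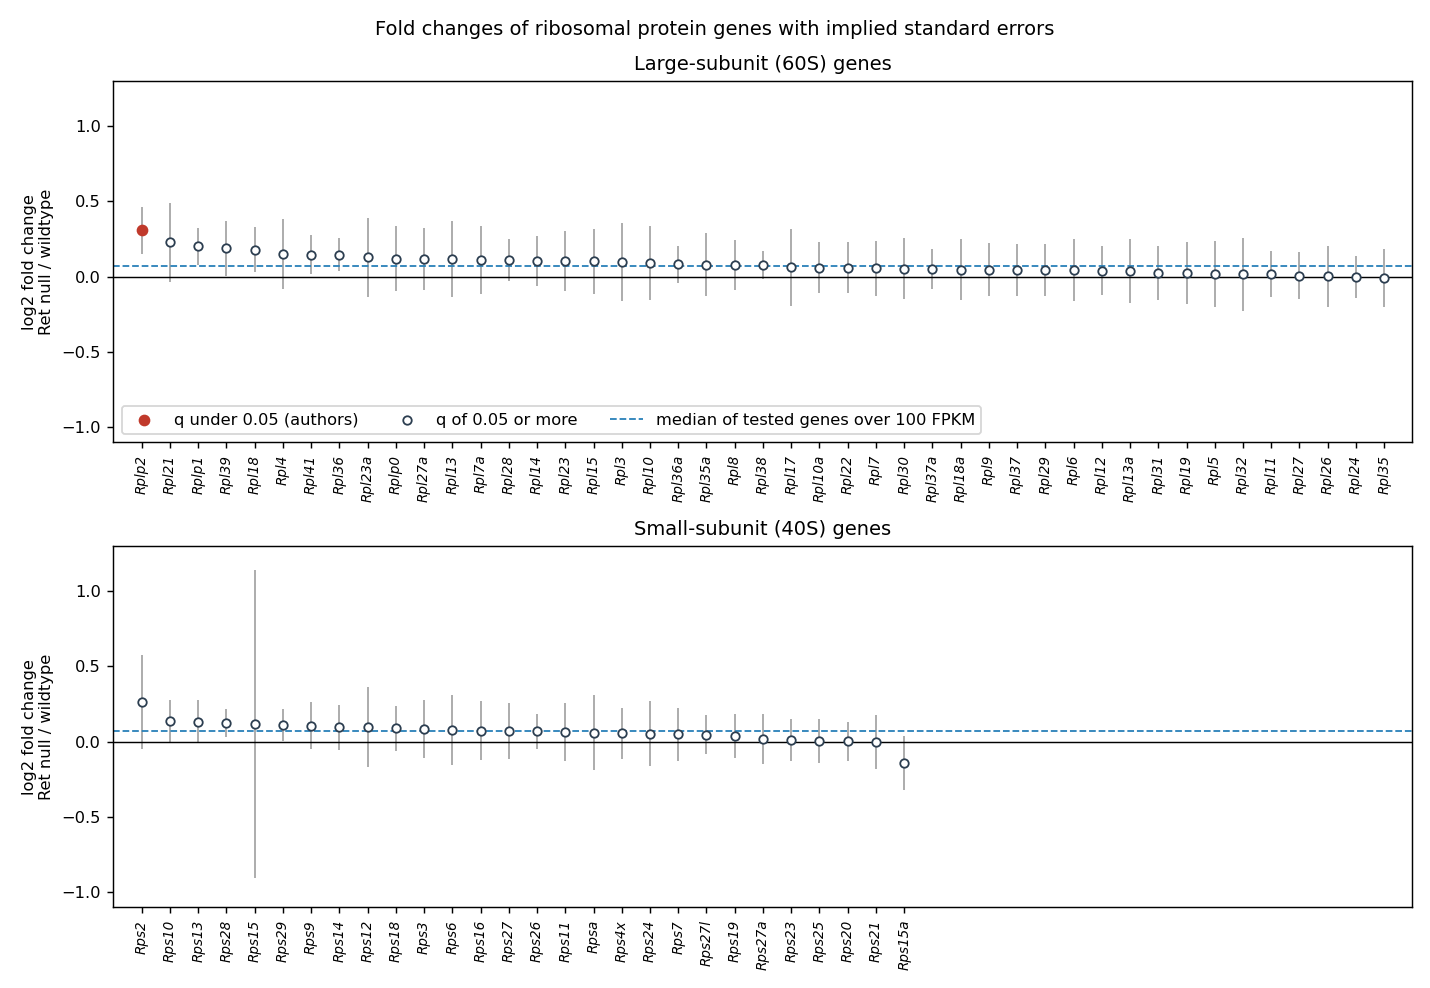
Log2 fold change (Ret null over wildtype) of 73 of the 76 ribosomal protein genes, ordered within the large and the small subunit; bars are the implied standard errors, the filled red point is the gene with q under 0.05, and the dashed line is the median of tested genes over 100 FPKM. Rplp2 at 0.31 is the 1 filled point, and Rps15 has the widest bar, 1.03.

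Members linked to Diamond-Blackfan anaemia in humans stayed within the same range. None of 19 rose or fell in the authors' Cuffdiff test. Of all tested genes 14.6% were called, and of the other tested genes over 100 FPKM 7.11%. The 19 had 0 at an unadjusted p under 0.05 and 0 with the normal p, and their median log2 fold change was 0.05. Rps19, the gene most often mutated in that disease, had 966 FPKM in Ret null gut and 940.1 FPKM in wildtype gut (0.04 ± 0.14). Log2 fold changes ran from -0.14 in Rps15a to 0.18 in Rpl18, which had 1111 FPKM in Ret null gut and 982 FPKM in wildtype gut. Rps7, Rps10, Rps24, Rps26, Rps27, Rps28, Rps29, Rpl15, Rpl26, Rpl27, Rpl31, Rpl35 and Rpl35a lay between these bounds. Embryonic globin genes moved in the same samples: Hbb-y fell to 3070.3 FPKM in Ret null gut, against 4532 FPKM in wildtype gut, and Hba-x fell to 627 FPKM, against 1408 FPKM.

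X-linked members were 4 of the 76: Rpl10, Rpl36a, Rpl39 and Rps4x. All 4 had the higher value in Ret null gut, with log2 fold changes of 0.09, 0.08, 0.19 and 0.06, and none passed at either q or an unadjusted p under 0.05. Rps4x, which has a Y-linked partner in humans, had 1323 FPKM in Ret null gut and 1273 FPKM in wildtype gut (0.06 ± 0.17) and lies 1.24 Mb from Xist. Their median log2 fold change of 0.09 stood beside 0.07 for the 72 autosomal members. For 19 other X-linked tested genes over 100 FPKM the median was -0.00. Rpl32, 2.34 Mb from Ret on chromosome 6, had 1459 FPKM in Ret null gut and 1442 FPKM in wildtype gut (0.02 ± 0.24). Its line is 34187 bases long, against 3243 for the gene, and touches 1 other coding gene.

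Tissue-variant paralogs split into near-silent and expressed copies. Rpl3l, the form of Rpl3 used in heart and skeletal muscle, was at 0.0357 FPKM in Ret null gut and listed at 0 in wildtype gut, while Rpl3 itself had 1558 FPKM in Ret null gut and 1456 FPKM in wildtype gut. Rpl10l, an intronless copy used in testis, was at 0.444 FPKM in Ret null gut and 0.344 FPKM in wildtype gut. Rpl39l, also known from testis, was at 0.648 FPKM in Ret null gut and 0.97 FPKM in wildtype gut. None of these 3 was tested by the authors, and each was under 0.1% of its counterpart's level in both genotypes. The coding sequences of Rpl3l, Rpl10l and Rpl39l are 74.2%, 84.7% and 85% identical to those of Rpl3, Rpl10 and Rpl39. The near-zero Rpl3l value in both genotypes stands beside muscle markers that were present in wildtype gut.

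The expressed paralogs did not pass either. Rps27l, which p53 activates, is the only tested member among them, at 7.97% of the level of Rps27 in Ret null gut and 8.11% in wildtype gut. Its log2 fold change was 0.05 ± 0.13. Outside the name rule, Rpl22l1, which Rpl22 itself represses in the mouse, had 230.1 FPKM in Ret null gut and 226 FPKM in wildtype gut. That was 107% of the Rpl22 level in Ret null gut and 110.0% in wildtype gut, so this paralog and its counterpart were at like levels. Rpl36al, an autosomal copy of X-linked Rpl36a, had 379 FPKM in Ret null gut and 331 FPKM in wildtype gut, 40.6% and 37.5% of the Rpl36a level, and was 0.20 ± 0.13 higher on the log2 scale (q = 0.238 in the authors' deposited table). Rpl7l1 had 59 FPKM in Ret null gut and 55.4 FPKM in wildtype gut. A line named Rps4y2, over the place of the GENCODE pseudogene Rps4l, had 65.1 FPKM in Ret null gut and 81.9 FPKM in wildtype gut (-0.33 ± 0.37). It runs over 148047416 to 148444352 of chromosome 6 and holds 1 coding gene besides, so its value may not be that of the copy.

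Ribosomal proteins that the name rule does not reach had values like the members. Fau, a ubiquitin-like fusion to a small-subunit protein, was at 809 FPKM in Ret null gut and 811 FPKM in wildtype gut. Rps3a1 was at 1927 FPKM in Ret null gut and 1840 FPKM in wildtype gut, and the merged line of Rpl34 at 1549 FPKM in Ret null gut and 1448 FPKM in wildtype gut. None passed, and their log2 fold changes ran from -0.00 to 0.10.

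Lists of other genes for translation, ribosome assembly and respiration held between 0 and 3 calls each, beside the 14.6% called over all tested genes. Of 74 tested mitochondrial ribosomal protein genes 0 rose and 0 fell (median log2 fold change 0.08), with 2 higher at an unadjusted p under 0.05. Of 81 tested respiratory genes, taken by the names Ndufa, Ndufb, Ndufs, Cox or Atp5, 0 rose and 0 fell (median 0.06). Of these, 3 were higher at an unadjusted p under 0.05. The names also take in Cox10 and Cox18, which are not subunits of the chain. Of 36 tested translation factors 1 rose, Pabpc1, the poly(A)-binding protein, which stood at 337 FPKM in Ret null gut and 266 FPKM in wildtype gut (0.34 ± 0.19, q = 0.0275 in the authors' deposited table), and 0 fell. Eif3f (0.26), Eif2s3x (0.21) and Eif3b (0.20) came next and did not pass. Among 30 ribosome biogenesis genes 2 rose and 1 fell. Gar1, of the pseudouridine-guiding particles, was at 35.6 FPKM in Ret null gut and 26.6 FPKM in wildtype gut (q = 0.0149 in the authors' deposited table). Tcof1, whose product treacle acts in transcription of ribosomal RNA and which is mutated in Treacher Collins syndrome, was at 28.1 FPKM in Ret null gut and 22.5 FPKM in wildtype gut (q = 0.0255 in the authors' deposited table). Utp20, of the processome for the small subunit, fell to 7.83 FPKM in Ret null gut, against 9.91 FPKM in wildtype gut (q = 0.0164 in the authors' deposited table). Fbl, the methyltransferase fibrillarin, had a log2 fold change of 0.26 and did not pass. None of 10 RNA polymerase I genes rose or fell, with 0 at an unadjusted p under 0.05 (median 0.03).

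Regulators upstream of the ribosome held 4 calls among 12 genes, beside the 14.6% called over all tested genes. Myc, a driver of ribosomal gene transcription, rose to 24.2 FPKM in Ret null gut, against 16.8 FPKM in wildtype gut (0.53 ± 0.21), and the p90 S6 kinase gene Rps6ka1 rose to 19 FPKM in Ret null gut, against 14.8 FPKM in wildtype gut (0.36 ± 0.19). Its X-linked relative Rps6ka3 fell to 12.2 FPKM in Ret null gut, against 18.8 FPKM in wildtype gut (-0.63 ± 0.20), and Rps6ka2 fell to 12.9 FPKM, against 15.8 FPKM (-0.29 ± 0.18). The q-values of the authors' deposited table were 0.000775 for Myc and Rps6ka3, 0.0211 for Rps6ka1 and 0.0422 for Rps6ka2. Rps6kb1 and Rps6kb2, the kinases that phosphorylate Rps6 under mTOR, had log2 fold changes of -0.02 and 0.07, and Mtor, Rptor, Tsc1, Tsc2, Larp1 and Mycn did not pass. Of 9 tested p53 targets, which respond to failing ribosome assembly, 1 fell and 0 rose. Over all tested genes 8.88% were called lower and 5.69% higher. The target that fell was Trp53inp1, at 7.30 FPKM in Ret null gut and 10.2 FPKM in wildtype gut (-0.49 ± 0.20, q = 0.000775 in the authors' deposited table).

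**Figure D4:**
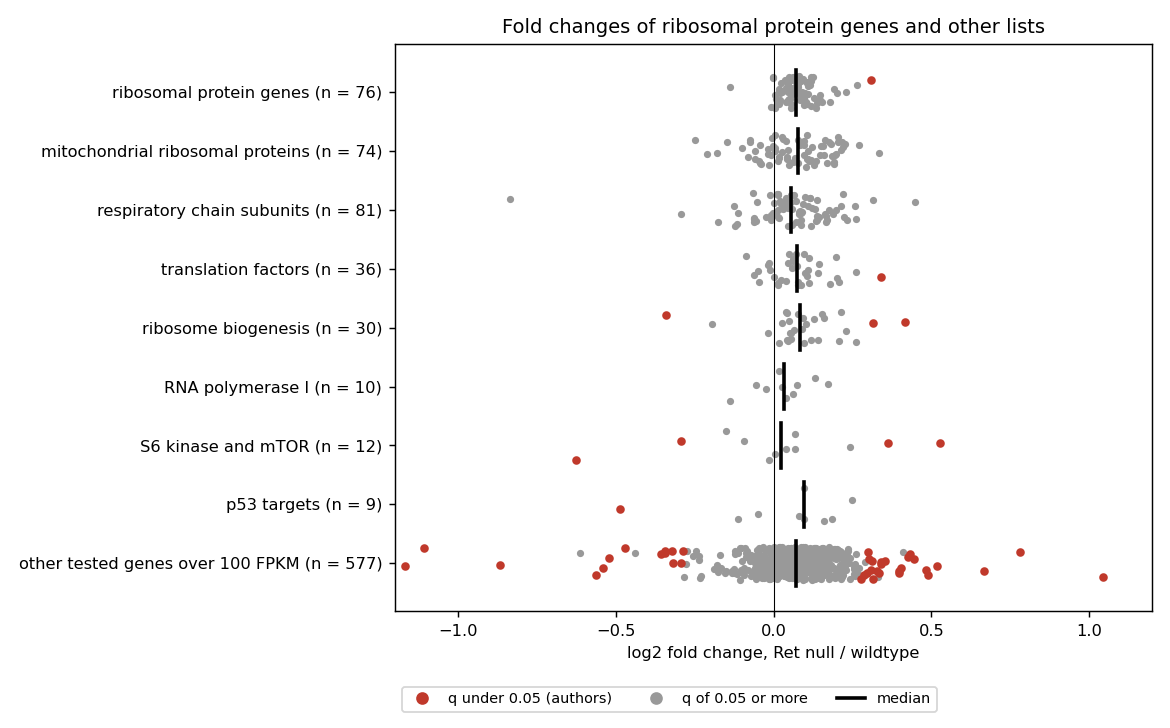
Log2 fold change (Ret null over wildtype) of every tested gene in the ribosomal protein list, 7 other lists and the other tested genes over 100 FPKM; red points have q under 0.05, black bars are medians, and 3 genes beyond 1.2 are not drawn. The list labelled respiratory chain subunits was taken by gene name and also holds Cox10 and Cox18. The medians lie between 0.02 and 0.09, and the ribosomal protein genes have 1 red point of 76.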

How the data were processed

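Polyadenylated RNA of dissected guts was sequenced from 3 Ret null and 3 wildtype samples, per the labels' protocols. Per the submitters' processing notes, the tools were Picard, TopHat2, Cufflinks and Cuffdiff, with build mm10. No source used here gives their versions, settings or annotation. The authors deposited 1 table with an FPKM value per genotype, and per the file headers their p-value, q-value and a test statistic, a signed score. The column letters w and h were read as wildtype and homozygous null. Of 23234 lines, 1 with 2 records run together was not used. With 1 value per genotype no test of samples was possible, as the design foresaw, and the authors' q under 0.05 was the test. Log2 fold changes were computed from FPKM with no pseudocount, because the deposited log2 column holds spreadsheet errors. The implied standard error is the log2 fold change divided by the score; a normal p from that score differs from the deposited p-value. The adjustment of p was tested on simulated data. Starts were raised by 1 base. Pseudogene copies were searched with blastn 2.17.0 in GENCODE M21 transcripts (GRCm38, the assembly of mm10), and start sequences come from RefSeq. The window around the start was chosen after the planned measures at the start itself. Python 3.11.15, pandas 2.3.3 and scipy 1.17.1 were used.

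Genes were named by a rule: called members, the 5 largest changes each way, the 5 highest and lowest levels, paralogs with counterparts, stalk, 5S, Diamond-Blackfan and X-linked members, and up to 4 genes of other lists by smallest q. The remaining kinase and mTOR genes, the Rpl34 and Rps4y2 lines, Rpl38, Rpl32, Rpl4, Rpl41, Rps6, Rpsa, Rps15 and the pseudogene lines were added after their values were seen. Some genes that the rule names are not reported here. Members and lists were chosen with earlier results of these data known. Alternatives were other q thresholds, minimum levels, a minimum fold, a normal p, pseudocounts, other scalings and a wider name rule.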

Additional observations from a re-analysis of the deposited data

How the results depend on the processing

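The authors' test gave 1 ribosomal protein gene higher and 0 lower, and 0 higher at q under 0.01, at a minimum change of 1.5-fold and with a normal p from the test statistic. It stayed at 1 at q under 0.1. Minima of 1 or 5 FPKM and the rescalings could not change it, since every member exceeds 100 FPKM and rescaling leaves the authors' q as it is. Over all tested genes, 764 were called higher and 1192 lower. The higher count was 499 at q under 0.01, 456 with a 1.5-fold minimum, 231 with the normal p and 1331 at an unadjusted p under 0.05. The lower count was 728 with a minimum of 5 FPKM, 702 with a 1.5-fold minimum, 373 with the normal p and 1814 at an unadjusted p under 0.05. The members' median log2 fold change of 0.07 was 0.0704 with 1 FPKM added, 0.077 as a mean, 0.0676 with 7 further names searched for, 0.0183 after subtracting the log2 ratio of summed FPKM, and -0.000218 after subtracting the median of tested genes over 100 FPKM. The unadjusted p, the summed-FPKM scaling and the median without stalk genes were chosen after seeing the data. Rplp2, the 1 call, was thus lost in 3 settings. No paired analysis was possible because the table has 1 value per genotype, and for the same reason leaving out samples was not run. Depth is unknown, and members with close pseudogene copies carry shared reads of unknown number.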

Other observations

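Ribosomal protein genes often carry small nucleolar RNAs in their introns, and 31 of 76 members (40.8%) are marked in GENCODE M21 as hosts of a small RNA, against 6.52% of 21951 protein-coding genes. Protein length ran from 25 amino acids in Rpl41 to 419 in Rpl4, with a rank correlation of 0.0265 with level and 0.0662 with log2 fold change over the 76 genes. Rpl41 had 2306 FPKM in Ret null gut and 2083 FPKM in wildtype gut, and Rpl4 had 1248 FPKM in Ret null gut and 1123 FPKM in wildtype gut. Level and log2 fold change had a rank correlation of 0.255. These describe genes that share libraries.

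Members lie on 19 chromosomes, with 14 of them on chromosome 7. Lines of 13 members touch another protein-coding gene, and the median log2 fold change of the other 63 was 0.07. The 4 tested lines named only for a pseudogene of a member stood below 10 FPKM. Rps15a-ps6 had 9.40 FPKM in Ret null gut and 7.45 FPKM in wildtype gut, and Rpl31-ps12 had 8.92 FPKM in Ret null gut and 7.69 FPKM in wildtype gut. Rps19-ps3 had 4.33 FPKM in Ret null gut and 3.46 FPKM in wildtype gut, while Rps15a-ps4 had 1.52 FPKM in Ret null gut and 1.93 FPKM in wildtype gut. None of the 4 passed q under 0.05 in the authors' deposited table.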
